A study of Mus musculus with 12 samples.

Results

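Whether the liver's response to dietary retinoic acid (RA) depended on hepatocyte retinoid X receptor alpha (RXRα) was examined as a difference of differences. For every gene the RA effect in wild type mice (WT_RA minus WT) was subtracted from the RA effect in knockout mice (KO_RA minus KO), and this was done for all 12393 genes and for all 22626 single probe sets. All 12 arrays of the series entered the contrast, 3 in each of 4 groups. A positive value means that RA moved the gene further up, or less far down, in KO than in WT livers, and a negative value means the opposite.

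Liver RNA of male C57BL/6 mice, 12 weeks old, was hybridised to Affymetrix mouse genome arrays, 1 array per mouse, and values are log2 signals. The WT mice carried an intact Rxra gene, and the KO mice lacked RXRα in hepatocytes, where a Cre recombinase driven by the albumin promoter removes the floxed exon for its DNA-binding domain. Other liver cells of KO mice keep the gene, and a shortened protein with the ligand-binding domain is still made in their hepatocytes. WT and KO mice ate a normal diet, and WT_RA and KO_RA mice ate a diet with all-trans RA at 150 mg/kg for 7 days. The mean signals of the hepatocyte genes Alb (13.88 to 14.01) and Apoa1 (13.96 to 14.05) were near the top of the scale in every group.

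RA acts through retinoic acid receptors (RARs), which bind DNA as heterodimers with an RXR, usually at direct repeats of a hexamer in the regulatory regions of target genes. RXRα is the main RXR of hepatocytes, and RXRβ and RXRγ are its paralogs. It is also the partner of receptors for fatty acids (PPARα), bile acids (FXR), oxysterols (LXR) and xenobiotics (PXR and CAR). Among the best known RAR targets are Cyp26a1, whose product oxidises RA, and Rarb, which encodes a receptor for RA.

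Cyp26a1 and Rarb carried such a repeat close to their start sites. The promoters below run 5′ to 3′ on the gene's strand (RefSeq, GRCm38.p6, from 250 bases before to 50 bases after the start), with capitals for a direct repeat of the hexamer AGGTCA, in which the first base may also be G and the third may also be T, on either strand and with a spacer of 5 bases (DR5). Of 32851 promoters of this length, 32 (0.0974%) held a DR5. The first lies at chr19:37697558-37697857 on the plus strand and its repeat reads on the minus strand. The second lies at chr14:16575427-16575726 on the minus strand and its repeat reads on the gene's strand. The promoter of Obp2a, at chr2:25699824-25700123 on the plus strand, is shown because Obp2a was the gene called for the difference of RA effects, and these letters are not in its window.
Cyp26a1: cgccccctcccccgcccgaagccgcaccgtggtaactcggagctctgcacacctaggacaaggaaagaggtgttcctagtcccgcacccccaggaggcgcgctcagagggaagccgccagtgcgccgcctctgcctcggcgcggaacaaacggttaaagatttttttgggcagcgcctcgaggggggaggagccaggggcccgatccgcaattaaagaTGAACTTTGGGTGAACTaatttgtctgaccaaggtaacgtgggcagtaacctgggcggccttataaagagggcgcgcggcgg
Rarb: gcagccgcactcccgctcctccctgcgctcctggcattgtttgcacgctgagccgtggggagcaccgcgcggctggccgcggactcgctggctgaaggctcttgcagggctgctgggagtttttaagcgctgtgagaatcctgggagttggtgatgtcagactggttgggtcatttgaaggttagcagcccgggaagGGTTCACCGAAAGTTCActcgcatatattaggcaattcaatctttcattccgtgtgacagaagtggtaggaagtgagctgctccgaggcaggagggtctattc
Obp2a: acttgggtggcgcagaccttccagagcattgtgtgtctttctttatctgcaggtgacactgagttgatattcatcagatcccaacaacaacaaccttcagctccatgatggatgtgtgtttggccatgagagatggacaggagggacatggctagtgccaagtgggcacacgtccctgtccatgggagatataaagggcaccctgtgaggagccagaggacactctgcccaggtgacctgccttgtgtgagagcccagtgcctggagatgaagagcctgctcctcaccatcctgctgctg

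Of the 20 genes with the smallest p for the difference of RA effects, 15 had a promoter in the RefSeq table, and Cyp26a1 was the 1 of them with a DR5. Spacers of 1 or 2 bases, which occurred in 0.222% and 0.268% of all promoters, were found in 0 of these 15. A match describes the letters of the window and is not a measured binding site.

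The arrays of a group ranked the genes alike (rank correlations of at least 0.978), and array medians lay between 6.26 and 6.35. WT_RA 3 and KO 1 stood apart. Their control probe set for the 3′ end of the actin mRNA read 9.40 and 9.12, against 12.1 to 12.9 on the other 10 arrays. Both arrays enter the difference of RA effects with the same sign, so results are also given without this pair. The part of that control signal in the results was not tested. The 2 probe sets of Rxra, the targeted gene, read 10.4 to 10.8 and 8.75 to 8.92 in WT, and 10.1 to 10.8 and 8.45 to 9.09 in KO. A shortened transcript is still made in KO, and where these probe sets lie relative to the removed exon was not analysed here, so their levels are no test of the deletion.

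RA calls were more numerous in WT than in KO livers, but not in every set of arrays. In limma, 158 of 12393 genes were called for RA in WT (1.27%, 108 up and 50 down), and 62 were called for RA in KO (0.500%, 34 up and 28 down). Without WT_RA 3 and KO 1 these counts were 95 and 110, so the order of the genotypes turned. Leaving out WT 3 gave 47 calls in WT, leaving out WT_RA 2 gave 56, and leaving out WT 2 or WT_RA 3 gave 63. The order also turned without WT 3, with 58 calls in KO, and without WT_RA 3, with 77. The KO count was 30 without KO 2, 6 without KO 3, 25 without KO_RA 1, 16 without KO_RA 2, 40 without WT_RA 2 and 41 without WT 2. The lists shared 20 genes, which is 12.7% of the WT list and 32.3% of the KO list, and all 20 moved the same way in both genotypes. The median size of the RA effect of the 158 genes was 0.92 in WT and 0.27 in KO. The same sign in both genotypes was found for 123 of them, against 6472 of all 12393 genes. For the 62 genes called in KO the median was 0.44 in WT and 0.93 in KO, and 55 had the same sign. Genes picked for a large effect in 1 genotype are expected to show a smaller one in the other, so these medians describe the lists and do not compare the genotypes. Across all 12393 genes the RA effects of WT and KO correlated at r = 0.18 (Pearson, 0.28 without the pair of arrays). Genes are not independent replicates, and the effects share no arrays.

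**Figure D1:**
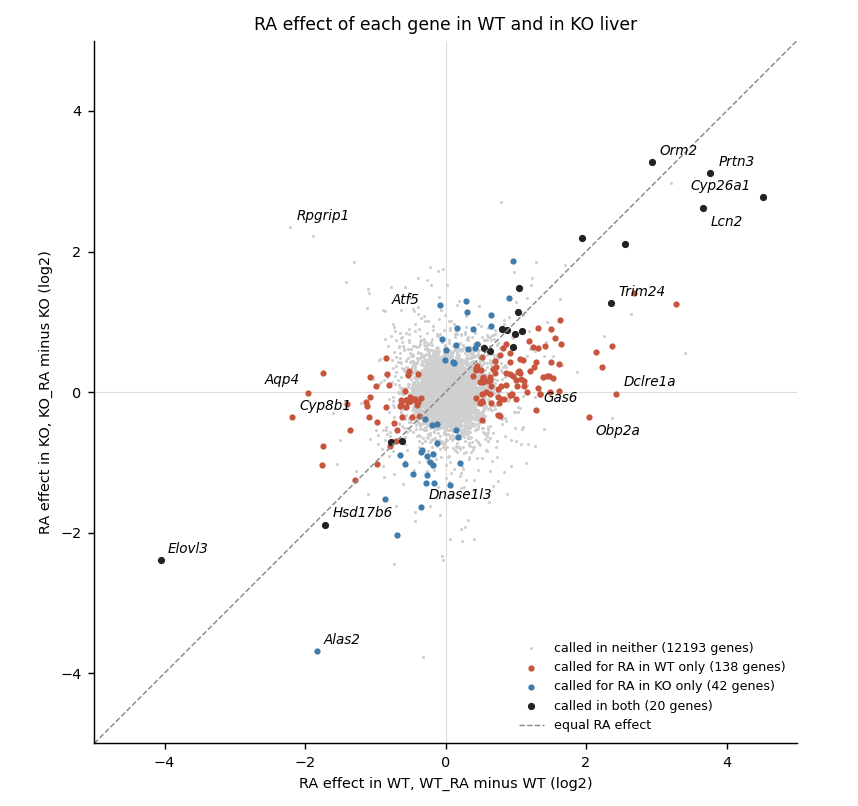
RA effect of each of the 12393 genes in KO livers (vertical axis, log2) against WT livers (horizontal axis, log2), with genes called in WT only, in KO only or in both in colour and equal effects on the dashed line. Cyp26a1, at 4.51 in WT and 2.78 in KO, lies below the line, Orm2 lies close to it, and Rpgrip1 and Atf5 lie on opposite sides of 0 in the genotypes.

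The difference of RA effects was called for 1 of 12393 genes (0.00807%), Obp2a, and had an unadjusted p under 0.05 for 1446 genes. Of these, 599 (4.83%) had the higher RA effect in KO and 847 (6.83%) the lower. These counts were 366 and 692 without WT_RA 3 and KO 1, and 392 and 600 without WT_RA 3 alone. At the level of single probe sets, 5 of 22626 were called (0.0221%), and 2755 had an unadjusted p under 0.05. The median SE was 0.17 for the difference of RA effects and 0.12 for the RA effect in WT. A gene that misses the threshold is not shown to respond alike in both genotypes.

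Obp2a, which encodes an odorant-binding protein of the lipocalin family, had a lower RA effect in KO than in WT livers. Its signal was 5.28, 5.07 and 5.59 in WT, 7.77, 7.16 and 7.12 in WT_RA, 4.77, 4.59 and 4.53 in KO, and 4.19, 4.36 and 4.28 in KO_RA. The 3 WT_RA arrays were above all others, and the KO_RA arrays were the lowest 3. RA raised it by 2.04 ± 0.17 in WT (SE, n = 3, limma adjusted p = 0.000219), a 4.10-fold rise, while the RA effect in KO was -0.36 (adjusted p = 0.376). The difference was -2.39 ± 0.24 (adjusted p = 0.00503, 95% confidence interval -2.92 to -1.87). It was called in each of the 12 fits that left out 1 array (-2.53 to -2.18) and without the pair of arrays (-2.44, adjusted p = 0.0125). Outside WT_RA its signal lay below the median signal of 6.30, so the size in KO is uncertain.

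The largest difference among the called probe sets was that of 1421011_at, 1 of a pair for Hsd17b11, a dehydrogenase of steroids and retinoids found on lipid droplets. It read 9.86, 9.81 and 8.90 in WT, 6.32, 6.35 and 5.73 in WT_RA, 6.77, 5.78 and 5.69 in KO, and 7.73, 8.94 and 8.74 in KO_RA. The WT and KO_RA arrays were all above the WT_RA and KO arrays. RA lowered it by 3.39 ± 0.38 in WT (limma adjusted p = 0.00223 over all probe sets) and raised it by 2.39 in KO (adjusted p = 0.0293), and the difference was 5.78 ± 0.53 (adjusted p = 0.00244). The brighter probe set of the gene, 1434642_at, did not show this crossing. It read 11.4 on the 3 WT arrays, 10.7 to 11.2 in WT_RA, 10.2 to 10.4 in KO and 10.3 to 10.6 in KO_RA. Its difference was smaller and of the same sign, at 0.58 (limma unadjusted p = 0.0045, adjusted p = 0.254).

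Riok3, a RIO family kinase, was represented by 4 probe sets, and 1460670_at was called. Its signal was 8.36, 8.13 and 7.86 in WT, 5.22, 5.30 and 5.83 in WT_RA, 7.51, 7.72 and 7.13 in KO, and 7.66, 7.96 and 7.78 in KO_RA. The WT_RA arrays were below the other 9, and KO and KO_RA overlapped. It fell by 2.67 ± 0.19 under RA in WT (limma adjusted p = 0.000112), the RA effect in KO was 0.34 (adjusted p = 0.447), and the difference was 3.01 ± 0.27 (adjusted p = 0.00244). The other 3 probe sets of Riok3 gave differences from -0.47 to -0.14, none of them called.

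The probe set 1420603_s_at matches both Raet1e and Raet1d, ligands of the natural killer cell receptor NKG2D whose family was named for its RA-induced transcripts. It read 6.42, 7.33 and 7.69 in WT, 12.39, 11.79 and 11.58 in WT_RA, 7.22, 6.85 and 7.22 in KO, and 8.70, 8.49 and 8.5 in KO_RA. Both RA groups were above both untreated groups, and WT_RA was above KO_RA on every array. RA raised it by 4.77 ± 0.28 in WT (limma adjusted p = 1.95e-05) and its effect in KO was 1.47 (adjusted p = 0.0555). The difference was -3.31 ± 0.40 (adjusted p = 0.0198), and this call was absent without WT_RA 2, KO 3, KO_RA 1, KO_RA 2 or KO_RA 3 (adjusted p up to 0.102). The 2 transcripts cannot be told apart by this probe set.

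The fifth called probe set, 1426153_a_at for the desmosomal cadherin gene Dsg2, was dim, with 5.88, 5.45 and 5.72 in WT, 4.43 to 4.69 in WT_RA, 4.42 to 4.72 in KO and 4.71 to 4.88 in KO_RA. The WT arrays were above the other 9, which read near or below the lower quartile of the arrays, so the size in KO is uncertain. RA lowered it by 1.11 in WT (limma adjusted p = 0.00223), and its effect in KO was 0.19 (adjusted p = 0.515). Its difference of 1.30 ± 0.18 (limma adjusted p = 0.0468) was called in 2 of the 12 fits without 1 array, and not without the pair of arrays (adjusted p = 0.0617). The other 5 probe sets of Dsg2 gave differences from -0.17 to 0.12. Thus Obp2a and the probe sets of Hsd17b11 and Riok3 were called in each of the 12 fits without 1 array and without the pair of arrays.

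**Figure D2:**
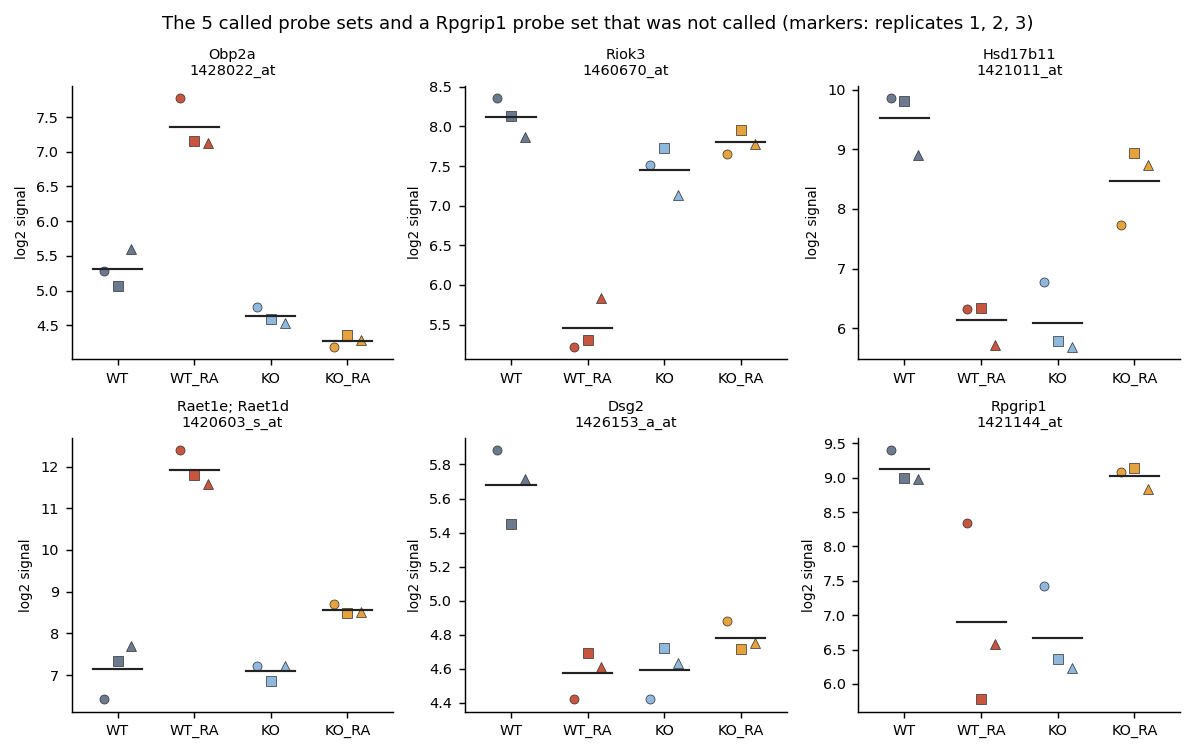
Log2 signal on each array of the 5 called probe sets and of Rpgrip1, which was not called, with 1 marker shape per replicate number and a bar for the group mean. WT_RA lies apart from the other groups for Obp2a, Riok3 and the probe set shared by Raet1e and Raet1d, while WT and KO_RA are high together for Hsd17b11 (difference 5.78) and Rpgrip1.

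Among the retinoid genes, Cyp26a1 rose in both genotypes and by less in KO. It read 7.49, 8.36 and 8.11 in WT, 12.54, 12.58 and 12.37 in WT_RA, 8.43, 8.43 and 8.69 in KO, and 11.39, 11.34 and 11.15 in KO_RA. Every WT_RA array was above every KO_RA array, and both were above the untreated arrays. The rise was 4.51 ± 0.18 in WT (22.8-fold, limma adjusted p = 1.19e-07) and 2.78 ± 0.18 in KO (6.87-fold, adjusted p = 3.35e-05). The difference of -1.73 ± 0.25 (95% confidence interval -2.28 to -1.18) missed the threshold after adjustment over all genes (unadjusted p = 1.83e-05, adjusted p = 0.0566), and was -1.48 to -1.92 in the fits without 1 array, 3 of which called it.

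Trim24, a coregulator of the RARs, rose by 2.35 in WT (limma adjusted p = 0.000297) and by 1.26 in KO (adjusted p = 0.0278). It read 6.59 to 6.92 in WT, 8.75 to 9.35 in WT_RA, 6.13 to 6.69 in KO and 7.40 to 8.14 in KO_RA, and the difference was -1.09 ± 0.30 (adjusted p = 0.231). The KO call was absent without KO 1, KO 3 or KO_RA 2, and without the pair of arrays. Trim24 had 2 probe sets, of which the brighter is given. Rarb rose by 1.42 in WT (adjusted p = 0.0026), from 4.60 to 5.10 in WT to 6.16 to 6.44 in WT_RA. In KO it read 5.40 to 5.64 and in KO_RA 5.82 to 6.52, an RA effect of 0.66 (adjusted p = 0.116) and a difference of -0.76 ± 0.25 (adjusted p = 0.271). The WT arrays were the lowest for Rarb, near the lower quartile of the arrays, and the RA groups overlapped.

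The receptors and the genes of retinoid uptake and storage showed differences nearer 0. The RA effect on Rxra differed by 0.64 ± 0.26 (adjusted p = 0.37, and 0.31 without the pair of arrays), Rxrb by 0.09, Rxrg by 0.02, Rara by 0.24 and Rarg by 0.00. Lrat, which esterifies retinol for storage, differed by 0.06 (95% confidence interval -0.22 to 0.34), the retinol transporter gene Stra6 by 0.01 (-0.30 to 0.32) and Dhrs3, a retinal reductase, by -0.17 (-0.55 to 0.20). These intervals leave room for moderate differences. On all arrays Lrat (3.81 to 4.48) and Stra6 (4.66 to 4.97) read near or below the lower quartile of the arrays. Of 6 retinoid receptor genes, 1 had an unadjusted p under 0.05 for a higher and 1 for a lower RA effect in KO. Of 14 RAR targets measured, 4 (28.6%, against 6.83% of all genes) were lower at that threshold. In the other direction 1 (7.14%, against 4.83%) was higher, and the median was 0.00. The members were chosen with earlier results of these data known, so these shares are a description and no test. Of 24 genes of retinoid storage and oxidation, a list that leaves out Cyp26a1, 0 passed that threshold in either direction (median -0.02). After adjustment 0 were called. Without the pair of arrays, 1 was higher and 1 lower at that threshold.

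**Figure D3:**
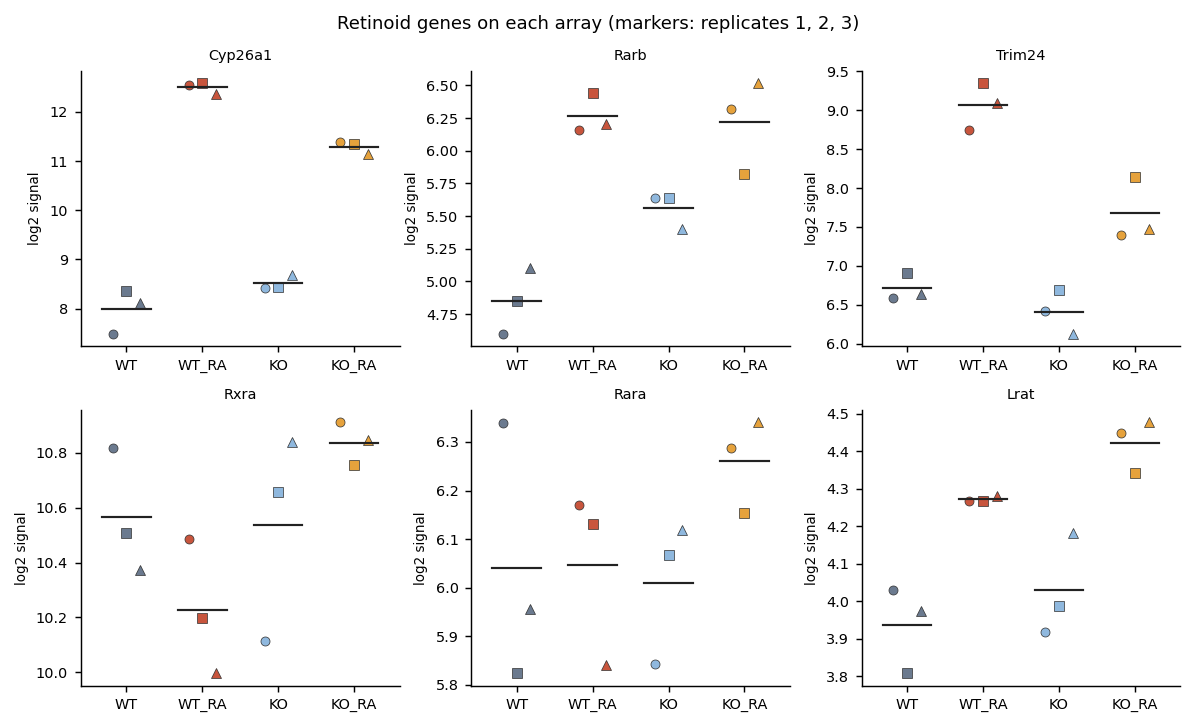
Log2 signal of 6 retinoid genes on each array, with 1 marker shape per replicate number and a bar for the group mean (vertical axes differ between panels and do not start at 0). Cyp26a1 and Trim24 are higher in WT_RA than in KO_RA on every array, whereas Rxra, Rara and Lrat span less than 1 log2 unit over all 12 arrays.

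The 20 genes with the smallest p had a lower RA effect in KO in 14 cases and a higher one in 6. The RA effects of 16 had opposite signs in the genotypes, while 6472 of all 12393 genes had the same sign. A sign in KO is no call: 3 of the 20 were called there, and the effect was -0.02 ± 0.14 for Prom1. Obp2a was called, and the adjusted p of the other 19 lay between 0.0566 and 0.085. Of the 20, 13 were called for RA in WT (10 up and 3 down), 3 for RA in KO and 1, Cyp26a1, for both. All were chosen on the difference of RA effects, so their pattern is a description.

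Most of them were called for RA in WT and not in KO. Prom1, which encodes the membrane glycoprotein prominin, read 4.72 to 4.89 in WT, 6.1 to 6.21 in WT_RA, 4.48 to 5.0 in KO and 4.48 to 4.89 in KO_RA. It rose by 1.35 in WT (limma adjusted p = 0.000748) and the difference was -1.37 ± 0.20 (adjusted p = 0.0566). Outside WT_RA its signal was near the lower quartile of the arrays. Chd1l, a chromatin remodeller, rose by 0.83 in WT, to 7.94 to 8.17 from 7.11 to 7.39, and read 7.00 to 7.15 on the 6 KO and KO_RA arrays (difference -0.92 ± 0.13, adjusted p = 0.0566). Gas6, a ligand of the TAM receptor kinases, rose by 1.29 in WT and had a difference of -1.54 ± 0.24 (adjusted p = 0.0611). The tetraspanin gene Tspan4 rose by 1.19 in WT with a difference of -0.89 ± 0.15. Dclre1a, a nuclease of DNA crosslink repair, rose by 2.43 in WT with a difference of -2.45 ± 0.41. In the opposite direction, the water channel gene Aqp4 read 5.48 to 5.89 in WT, 3.59 to 3.79 in WT_RA, and 7.81 to 9.04 on the KO and KO_RA arrays. It fell by 1.96 in WT to near the floor of the scale, its RA effect in KO was -0.01, and the difference was 1.95 ± 0.34 (adjusted p = 0.0777). Esco1, an acetyltransferase of cohesin, fell by 0.83 in WT (difference 1.08 ± 0.17). Dnase1l3, a secreted DNase, had its call in KO, where it fell by 1.63 (adjusted p = 0.000879), from 8.73 to 9.27 to 7.09 to 7.48, against an RA effect of -0.35 in WT (difference -1.29 ± 0.21, adjusted p = 0.0631). Dclre1a, Aqp4, Esco1 and Dnase1l3 were each represented by 2 probe sets. The brighter is given here, and the other is not described.

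Rpgrip1 and Atf5 showed a crossed pattern, with all WT and KO_RA arrays above all WT_RA and KO arrays. This pattern was found in 30 genes (0.242%), and its reverse in another 30 (0.242%). Rpgrip1, which encodes a photoreceptor cilium protein, read 8.98 to 9.40 in WT, 8.35, 5.78 and 6.58 in WT_RA, 7.43, 6.36 and 6.23 in KO and 8.84 to 9.14 in KO_RA, with the widest gap of these genes (0.49). Its difference was 4.57 ± 0.71 (limma adjusted p = 0.0611). The other 3 probe sets of Rpgrip1 read 3.36 to 4.87 on all arrays, with differences from -0.30 to 0.05. Atf5, a leucine zipper transcription factor, read 9.93 to 10.57 in WT, 9.09 to 9.44 in WT_RA, 9.0 to 9.73 in KO and 10.03 to 10.69 in KO_RA (difference 2.01 ± 0.33, adjusted p = 0.0611). Without the pair of arrays the differences were 4.79 and 1.77.

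**Figure D4:**
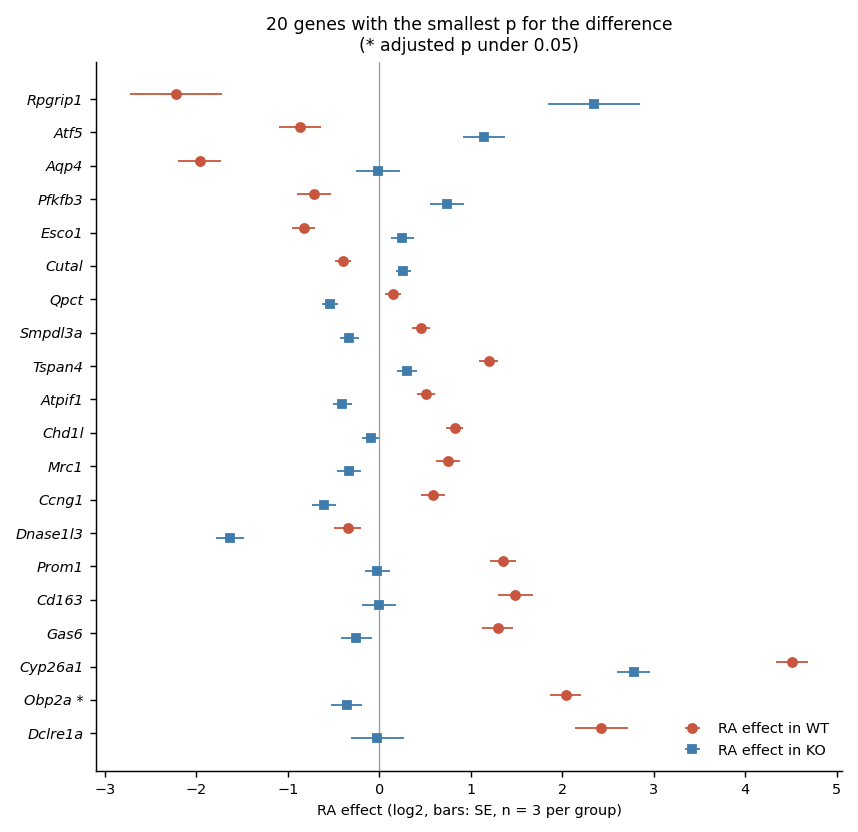
RA effect in WT (circles) and in KO (squares), log2 with SE (n = 3 per group), of the 20 genes with the smallest p for the difference of RA effects, ordered by the difference. For Cyp26a1 both effects are positive, whereas for Rpgrip1, at -2.22 and 2.35, they lie on opposite sides of 0, and the asterisk marks Obp2a, the called gene.

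The largest RA effects were partly shared by the genotypes. Orm2, an acute phase protein gene, rose by 2.94 in WT and 3.27 in KO, from 8.24 to 8.81 to 10.5 to 12.2 and from 7.85 to 9.80 to 11.8, a difference of 0.33 ± 0.69 (95% confidence interval -1.17 to 1.83). Orm3 rose by 1.94 and 2.19 (difference 0.26), and Lcn2, an iron-sequestering lipocalin, by 3.67 and 2.62 (difference -1.05 ± 0.69, adjusted p = 0.606). Prtn3, a neutrophil protease gene, rose by 3.76 and 3.11, and Hsd17b6, an androgen-metabolising dehydrogenase, fell by 1.71 and 1.89 (difference -0.18, interval -1.13 to 0.77). Elovl3, a fatty acid elongase of the male liver, fell by 4.05 in WT and 2.39 in KO, from 11.6 to 11.8 to 7.24 to 8.35 and from 8.20 to 9.60 to 6.16 to 6.80. Its difference was 1.66 ± 0.47 (adjusted p = 0.242), and KO began below WT. Several of these calls depended on single arrays. In KO, the call of Prtn3 was made in 3 of the 12 fits without 1 array (those without WT_RA 1, WT_RA 3 or KO_RA 3) and that of Lcn2 in 4 (without WT 1, WT_RA 1, WT_RA 3 or KO 2). The KO call of Orm2 was absent without KO 3, KO_RA 1 or KO_RA 2, that of Elovl3 without KO 3 or KO_RA 2, that of Orm3 without KO 3, and that of Hsd17b6 without KO 2, KO 3, KO_RA 1 or KO_RA 2. In WT, the calls of Orm2 and Hsd17b6 were absent without WT 1, WT 3, WT_RA 2 or WT_RA 3. Without the pair of arrays, the KO call of Lcn2 and the WT call of Hsd17b6 were absent.

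Others were called in 1 genotype, with differences that did not pass. The chemokine gene Cxcl14 rose by 3.28 in WT (limma adjusted p = 0.00966, effect in KO 1.26, difference -2.02 ± 0.71, adjusted p = 0.3). Cyp8b1, a hydroxylase needed to make cholic acid, read 11.47 to 12.02 in WT, 10.6, 9.99 and 8.27 in WT_RA, 11.8 to 12.01 in KO and 11.4 to 11.7 in KO_RA. It fell by 2.18 in WT (adjusted p = 0.0308), its effect in KO was -0.35, and the difference was 1.83 ± 0.61 (adjusted p = 0.283, and 1.11 without the pair of arrays, which holds the lowest array). That fall was not called without WT 1, WT 2, WT 3, WT_RA 2 or KO_RA 3. Aox3, an aldehyde oxidase gene, fell by 1.75 in WT (difference 0.99 ± 0.24, adjusted p = 0.213), and the male-biased Hsd3b5 fell by 1.75 (difference 0.72), a call absent in each fit that left out a WT array, and without KO 3, WT_RA 2 or WT_RA 3. In KO, Alas2, a heme synthesis enzyme of red cells, fell by 3.68 (difference -1.85 ± 0.95), and Clec2h, a C-type lectin gene, fell by 2.04 (difference -1.35 ± 0.47). The Alas2 call was made in 3 of the 12 fits, those without a WT_RA array, and the Clec2h call was absent without KO 2, KO 3, KO_RA 1 or KO_RA 2. The Cxcl14 call was absent without WT 3, and the calls of Hsd3b5 and Alas2 were absent without the pair of arrays.

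Gene lists were described by their counts and medians beside those of all genes, whose median difference was -0.02. Of all 12393 genes, 6810 had a negative difference. At an unadjusted p under 0.05, 4.83% of all genes were higher and 6.83% lower. Markers of Kupffer cells and macrophages were lower by the difference on balance: 18 of 18 measured had a negative value, 14 had an unadjusted p under 0.05, 0 were called, and the median was -1.39 (0.94 for RA in WT and -0.53 for RA in KO). The median was -1.54 without the pair of arrays and -0.95 without KO 2, with 18 of 18 negative in each of the 12 fits without 1 array. Cd163, a hemoglobin scavenger receptor, read 5.71 to 5.96 in WT, 6.99 to 7.67 in WT_RA, 6.22 to 6.85 in KO and 6.45 to 6.79 in KO_RA. It rose by 1.49 in WT (limma adjusted p = 0.00299), its effect in KO was 0.00, and the difference was -1.49 ± 0.27 (adjusted p = 0.085, and 0.0362 without the pair of arrays). Vsig4, a complement receptor, differed by -1.93 ± 0.49 and the scavenger receptor gene Msr1 by -1.01 ± 0.27. Mrc1, a mannose receptor gene of macrophages and endothelium, was among the 20 smallest p (-1.08 ± 0.19). The level of the list on each array, as the median deviation of its members from their 12-array means, was -0.76 to -0.63 in WT, -0.11 to 0.61 in WT_RA, -0.33 to 1.46 in KO and -0.09 to 0.03 in KO_RA. WT was below all other arrays, and WT_RA 3 and KO 2 were the highest of their groups. In whole liver, fewer cells of a type and less RNA per cell cannot be told apart.

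Interferon response genes had negative differences too, with the larger median RA effect in KO. Of 40 measured, 18 were lower and 1 was higher at an unadjusted p under 0.05, 0 were called, and the median difference was -0.91 (0.04 for RA in WT and -0.71 for RA in KO). The list's level was -0.12, 1.43 and 0.50 in KO and -0.56 to 0.03 on the other 9 arrays, so that KO 2 stood highest. Without KO 2 the median was -0.51, and 35 of 40 genes were negative, while without KO 1 it was -1.19. The guanylate-binding protein gene Gbp2 read 6.15, 8.13 and 6.79 in KO and 4.59 to 5.47 on the other arrays (difference -2.17 ± 0.55, adjusted p = 0.222). Irf1, an interferon-induced transcription factor, differed by -0.96 ± 0.23 (adjusted p = 0.212). Positive differences were found for 2 of the 40, and Trim30a (1.19 ± 0.33) was the 1 higher at that unadjusted threshold. Antigen presentation genes had a median of -1.23 over 15 measured, 14 of them negative, with 3 lower at an unadjusted p under 0.05. Their level was -0.49, 1.95 and 0.58 in KO, and the median was -0.54 without KO 2 and -1.88 without KO 1. Without WT_RA 3 and KO 1 it was -1.85, with 12 of the 15 lower at that threshold. H2-Aa, which encodes a class II chain, read 7.95, 11.25 and 9.50 in KO (difference -2.28 ± 0.90, adjusted p = 0.356). H2-DMa differed by -1.59 and the peptide transporter gene Tap1 by -1.29.

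Other lists leaned one way with smaller medians. Of 36 cell cycle genes, 14 were lower and 0 higher at an unadjusted p under 0.05 (median -0.30, and -0.35 to -0.23 without 1 array), among them the centromere histone gene Cenpa (-0.58 ± 0.13), the mitotic kinase gene Cdk1 (-0.71) and the cyclin gene Ccnb2 (-0.53). Of 27 genes of amino acid metabolism and urea synthesis, 10 were higher and 0 lower, 24 had a positive difference, and the median was 0.34 (0.22 without the pair of arrays). Hal, which breaks down histidine, fell by 0.85 in WT (limma adjusted p = 0.0428), its effect in KO was 0.48, and the difference was 1.33 ± 0.25 (adjusted p = 0.0919). Gldc, of the glycine cleavage system, fell by 1.08 in WT with a difference of 1.29 ± 0.27, and Cbs, which makes cystathionine, differed by 0.68. The falls of Hal and Gldc were not called without WT 1, WT 3, WT_RA 1 or WT_RA 3, nor without the pair of arrays. That of Hal was also not called without WT 2, WT_RA 2 or KO_RA 1. Hepatocyte markers had a median of 0.18 over 17 measured, with 3 higher and 0 lower, among them Tat (0.76) and Asgr2 (0.60), and a median of 0.06 without the pair and 0.08 to 0.20 without 1 array, the lowest without WT_RA 3. Endothelial markers had 7 lower and 0 higher of 18 (median -0.19, and -0.33 both without KO 1 and without the pair). Among them were Gpr182, which fell by 0.90 in KO (not called without KO 3), Oit3 (-0.60) and Dnase1l3 (-1.29), described above. Of the 18, 4 were called for RA in KO (against 62 of all 12393 genes) and 0 in WT (against 158). Of 15 stellate cell markers 5 were lower, and 1 without the pair of arrays, with a median of -0.23 that was -0.01 without WT 2, -0.09 without KO_RA 3, -0.14 without WT_RA 2 and -0.36 without WT 1.

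**Figure D5:**
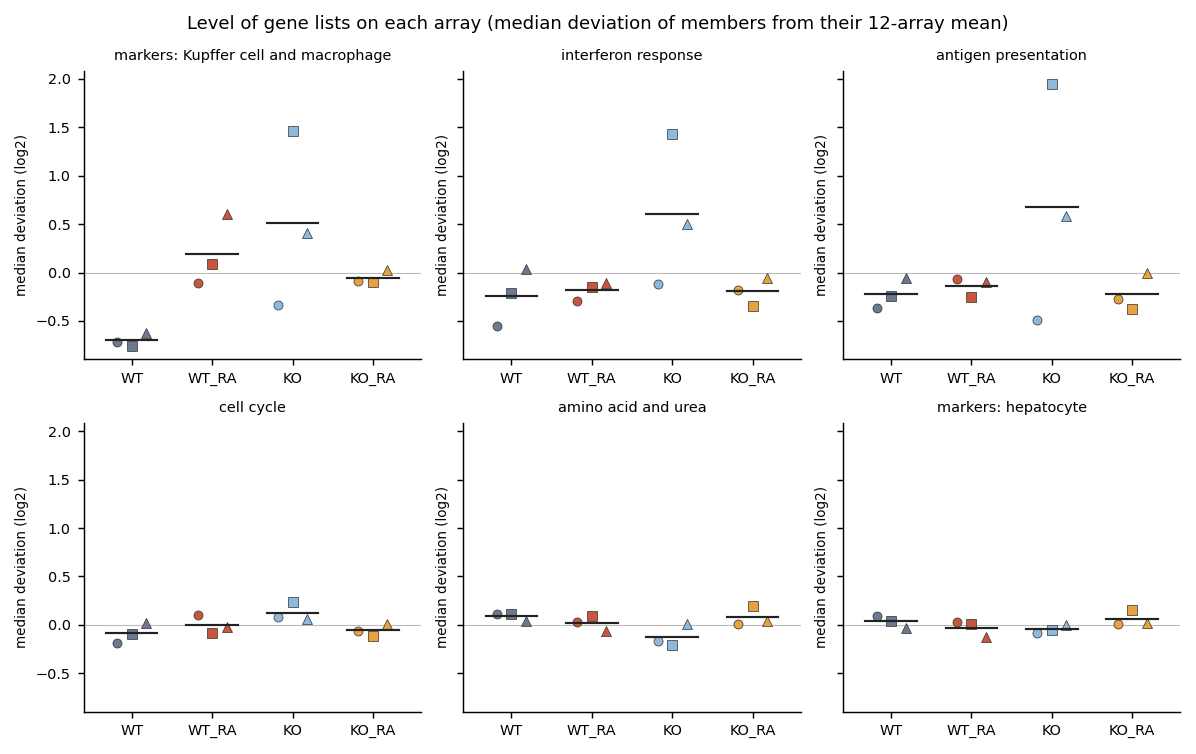
Level of 6 gene lists on each array, as the median log2 deviation of the members from their mean over the 12 arrays, with 1 marker shape per replicate number and a bar for the group mean. Kupffer cell markers are lowest in WT (-0.76 to -0.63), and KO 2 is the highest array for the Kupffer, interferon, antigen presentation and cell cycle lists.

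The targets of RXR's partner receptors were described in the same way. Of 27 PXR and CAR targets, 6 were lower and 0 higher at an unadjusted p under 0.05 (median -0.23). The median was -0.14 without WT_RA 1 and -0.39 without KO 2, and -0.32 with 9 lower without the pair of arrays. Gsta2, a glutathione transferase, read 9.17 to 9.68 in WT, 9.16 to 10.6 in WT_RA, 9.65 to 10.3 in KO and 7.97 to 8.64 in KO_RA. The KO_RA arrays were the lowest 3, and the difference was -2.19 ± 0.45 (limma adjusted p = 0.139, and 0.021 without the pair of arrays). Cyp3a44 differed by -0.61 and the efflux pump gene Abcb1a by -0.65. Of 26 FXR targets and bile acid genes, 5 were higher and 0 lower (median 0.17, which was 0.02 without the pair and 0.06 to 0.20 without 1 array, the lowest without WT 1). Besides Cyp8b1 these included Hsd3b7, a bile acid synthesis enzyme that fell by 0.63 in WT (difference 0.52), and the bile salt pump gene Abcb11, which fell by 0.63 in WT (difference 0.47). The fall of Hsd3b7 was not called without WT 2, WT 3, WT_RA 2 or WT_RA 3. That of Abcb11 was called in no fit that left out WT 1, WT 2 or a WT_RA array, nor without the pair. Of 41 PPARα targets, 7 were lower and 1 was higher (median -0.17). That median was -0.02 without WT_RA 1, -0.10 without WT 3, -0.09 without KO 3, -0.27 without WT_RA 3 and -0.27 without the pair. Of 17 LXR targets, 2 were lower and 0 higher (median 0.14, and -0.07 without the pair of arrays). Of 18 genes for RXR partner receptors, 4 were higher and 0 lower (median 0.04). Acute phase genes had a median of 0.05 over 38 measured (-0.09 to 0.11 without 1 array), with RA effects of 0.44 in WT and 0.45 in KO. Of the 38, 4 (10.5%) were higher and 5 (13.2%) lower at an unadjusted p under 0.05.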

How the data were processed

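The livers of 12 mice gave 1 Affymetrix array each, and the titles gave the group and replicate number. The authors deposited 1 log2 value per probe set and array. The submitters' processing notes name RMA and Partek 6.11, and the study's methods name MAS5 for its own analysis. Background correction was not repeated, and the number of arrays limits the precision.

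Of 22690 probe sets, 64 controls were left out, 20380 had 1 symbol, 691 several and 1555 none in the platform annotation. A gene was its probe set with the highest mean, and dim probe sets were kept. Group means were modelled in R 4.3.3 by the lmFit and eBayes functions of limma 3.58.1 (two-sided, 8 residual degrees of freedom), with Benjamini-Hochberg adjustment over all genes or all probe sets, and calls at an adjusted p under 0.05. Errors are SE with n = 3 arrays per group. The fit was tested on simulated data.

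The genes named are the called genes, the 20 with the smallest p for the difference, retinoid genes, the 5 largest called RA effects in each direction and genotype, and up to 3 members with the smallest p of each of 40 gene lists; the text names a part of them. The members and lists were chosen with earlier results of these data known. Promoters were searched in RefSeq sequences of GRCm38.p6.

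The alternatives were a replicate block, quantile normalization again, arrays centred on their medians, the mean of a gene's probe sets, only genes at or above the median signal, array weights, a trended and robust eBayes, leaving out each array, and leaving out WT_RA 3 with KO 1. The same replicate numbers did not pair arrays: deviations from group means correlated from -0.46 to 0.27 between same-numbered arrays, over 0.1 in 5 of 18 pairs.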

Additional observations from a re-analysis of the deposited data

Results flagged for a closer look

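The test of the difference between the genotypes' RA effects called 5 probe sets, and these are given here once more by size. The difference was 5.78 for the Hsd17b11 probe set 1421011_at, 3.01 for the Riok3 probe set 1460670_at and 1.30 for the Dsg2 probe set 1426153_a_at, where the RA effect was higher in KO. It was -2.39 for Obp2a and -3.31 for the probe set shared by Raet1e and Raet1d, where it was lower in KO. For Hsd17b11, Riok3 and Dsg2, other probe sets of the same gene gave differences from -0.47 to 0.58 and were not called, and which transcripts each probe set reads was not tested.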

How the results depend on the processing

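With 3 arrays per group and 12 in all, 1 gene was called for the difference of RA effects, and this count moved with the setting. It was 2 with the replicate block (Obp2a and Rpgrip1), 5 with arrays centred on their medians, 6 with the mean of a gene's probe sets, 5 with the trended and robust eBayes, 247 with array weights (65 higher and 182 lower in KO), 12 without WT_RA 3 and KO 1 (1 higher and 11 lower), and 1 to 14 without 1 array, 14 without KO 1. It was 0 of 7143 genes at or above the median signal, a filter that removes Obp2a, with 997 genes at an unadjusted p under 0.05 there. Obp2a was called under each of the other alternatives. The genes called for RA in WT numbered 1070 with array weights, 95 without the pair and 47 to 212 without 1 array. Those called for RA in KO numbered 107 with quantile normalization, 303 with array weights, 110 without the pair and 6 to 77 without 1 array, 6 without KO 3. The called probe sets numbered 18 without the pair and 3 to 15 without 1 array, 15 without KO 1. The replicate block gave 4 called probe sets, 3 of them shared (Obp2a, Hsd17b11 and Riok3), without those of Raet1e and Raet1d and of Dsg2 and with the histone H3 probe set. Among genes at an unadjusted p under 0.05, the mean of probe sets gave 710 with the higher and 760 with the lower RA effect in KO. The cause of these moves was not tested.

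The difference of RA effects kept its sign in every fit for 63 of 73 genes, and the other 10 had values near 0 or wide errors. With array weights it was -0.13 for Rxrg, -0.017 for Rara and -0.10 for Lrat, without the pair -0.03 for Rxrg, with centred arrays -0.00409 and with the mean of probe sets -0.090 for Rarg. Without 1 array or the pair it ranged from -0.034 to 0.21 for Rxrb, -0.093 to 0.093 for Rxrg, -0.16 to 0.19 for Rarg, -0.071 to 0.073 for Stra6, -1.38 to 0.029 for Prtn3, -0.17 to 0.97 for Orm2, -0.14 to 0.56 for Orm3 and -0.50 to 0.18 for Hsd17b6. Signals near or below the lower quartile of the arrays (4.87 to 5.02) in some or all groups limit what can be read of several genes. Among them are Obp2a, Rarb, Lrat, Aqp4, Cry1, Prom1, Stra6, Prtn3, Ccnb2 and the called probe set of Dsg2.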

Other observations

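Clock genes were described by 18 members, with a median of -0.03. At an unadjusted p under 0.05, 2 were higher and 3 lower (11.1% and 16.7%, against 4.83% and 6.83% of all genes). The 3 with the smallest p responded in WT. Nfil3, a repressor of the clock's output, read 7.11 to 7.57 in WT, 8.49 to 9.11 in WT_RA, 7.13 to 7.42 in KO and 7.40 to 7.82 in KO_RA. It rose by 1.47 in WT (limma adjusted p = 0.0023, difference -1.25 ± 0.25, adjusted p = 0.111). Nr1d1, the repressor REV-ERBα, read 8.62 to 9.03 in WT and 7.08 to 7.20 in WT_RA (it fell by 1.75), and 7.40 to 8.97 in KO and 7.78 to 8.78 in KO_RA (difference 2.03 ± 0.48, adjusted p = 0.192). Cry1 rose by 1.16 in WT and its 6 KO and KO_RA arrays lay between 4.05 and 4.22 (difference -1.15 ± 0.30). The call of Cry1 was absent without WT 2, WT 3 or WT_RA 2, and that of Nr1d1 in each fit that left out a WT or WT_RA array. The hour at which livers were taken was not analysed here.

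Of 15 genes of the growth hormone and IGF axis, 3 were lower and 0 higher (median -0.05). Over all genes, 4.83% were higher and 6.83% lower at an unadjusted p under 0.05. Igfbp1, a binding protein of the insulin-like growth factors, rose by 2.15 in WT, from 8.85 to 10.2 to 11.3 to 12.3, and read 11.4 to 11.7 in KO and 11.9 to 12.3 in KO_RA (difference -1.58 ± 0.46, adjusted p = 0.244). Socs3, a feedback inhibitor of cytokine signalling, had a difference of -2.74 ± 0.87 (adjusted p = 0.265), with 7.58 to 10.4 in KO. Without WT_RA 3 and KO 1, its highest arrays, the difference was -1.74. The pericentral transporter genes Slc13a3 and Rhbg rose by 2.36 and 1.02 in WT, with differences of -1.71 ± 0.65 and -0.94 ± 0.27. Both calls were absent without WT 2, WT 3 or WT_RA 2, that of Slc13a3 also without WT 1 or WT_RA 3, that of Rhbg without WT_RA 1, and that of Igfbp1 without WT 3. Fatty acid synthesis genes had 4 higher and 1 lower of 20 (median 0.38), and unfolded protein and stress genes 6 higher and 3 lower of 33 (median 0.20), with 2 higher and 0 lower without WT_RA 3 and KO 1 and a median of 0.10 without KO 1 and 0.13 without WT 1. Cholesterol synthesis genes had a median of 0.30 over 19 measured and of -0.01 without WT_RA 3 and KO 1, and of 0.09 without WT 3 to 0.58 without WT 1 in the fits without 1 array. The other 18 lists, counting the LXR targets, had medians between -0.18 and 0.29.

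Below the called probe sets, some of the smallest p belonged to probe sets outside the gene table, and these were chosen after their values were seen. A probe set shared by 12 replication-dependent histone H3 genes read 6.35 to 6.71 in KO and 7.29 to 7.53 in KO_RA, where it rose by 0.88 (limma adjusted p = 0.00911), and 6.83 to 7.17 in WT and WT_RA (difference 1.04 ± 0.15, adjusted p = 0.0549). The 3 probe sets of Hyou1, a chaperone of the endoplasmic reticulum, had differences of 1.61, 1.23 and 0.57 (adjusted p of 0.0664, 0.0664 and 0.341). A probe set without a symbol, 1452426_x_at, read 7.09, 9.41 and 6.99 in WT, 3.11 to 3.72 in WT_RA, 3.39 to 4.65 in KO and 4.16, 7.39 and 6.36 in KO_RA, with a difference of 6.52 ± 1.09 (adjusted p = 0.0826).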
